A study of Mus musculus with 4 samples.

Results

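Tcf7, Lef1, Satb1, Bach2, Foxp1, Id3, Ets1 and Ikzf1 encode transcription factors that are abundant in naive, stem-like or long-lived T cells. Here their transcript levels are described in effector T cells with low or high surface CD5 from NOD mice. The genes were chosen by name, with earlier results of the same comparison known, and all 8 were among the 7252 genes that the authors tested, in a table of 7404 gene rows. The values below therefore describe this comparison, and the authors' p-values and q-values for these genes support no claim about the choice.

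The series held 4 RNA-seq libraries, 2 of CD5 low and 2 of CD5 high effector T cells. All came from NOD.Foxp3-GFP mice, aged 6 to 9 weeks, of the diabetes-prone NOD strain with a green fluorescent reporter of Foxp3, which defines regulatory T cells. The tissue label names pancreatic islets together with spleen, whereas the library titles and the design text name islet cells. CD5 is a surface inhibitor of T cell receptor signalling, and its level is commonly read as a measure of how strongly a T cell recognises self-peptides. No group received a treatment according to the labels, and the other series with which the design text says these libraries were compared were not used here.

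The authors' deposited table gives 1 combined value per group in FPKM, fragments per kilobase of transcript scaled to the sequencing output, so no SD, standard error or n belongs to any value below and the depth is unknown. The sources used here do not say whether the libraries came from separate mice, so the authors' p-values may measure technical spread. The titles number the libraries 3 and 4 in both groups, and whether equal numbers mark paired cells, or the authors' test used this, is not stated. A gene is said to have fallen or risen only where the authors' q-value, their p-value adjusted over all tested genes, was under 0.05. In bulk RNA, fewer cells of a type and less RNA per cell cannot be told apart.

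T cells that have not yet responded, and the self-renewing cells that sustain a chronic response, share a set of transcription factors. TCF-1, encoded by Tcf7, and LEF-1 bind DNA through an HMG box and recruit beta-catenin or the Groucho repressors. SATB1 organises chromatin loops, BACH2 competes with AP-1 at shared sites and restrains effector differentiation, and FOXP1 holds naive T cells in quiescence. ID3 sequesters the E proteins, ETS1 supports T cell survival and development, and Ikaros, encoded by Ikzf1, works with the NuRD complex and raises the threshold of activation. In autoimmune diabetes, stem-like T cells with high TCF-1 have been described as a reservoir of the cells that attack the islets.

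For orientation, the 250 bases before the transcription start are shown for Satb1 and Lef1, the factors with the largest differences between the groups. Both sequences are from RefSeq on GRCm38.p6, the same build as mm10, are written 5′ to 3′ on the strand of the gene, and end at the base before the start. In both genes that start coincides with the 5′ end of the locus in the authors' deposited table.
Satb1, chr17:51833291-51833540, minus strand: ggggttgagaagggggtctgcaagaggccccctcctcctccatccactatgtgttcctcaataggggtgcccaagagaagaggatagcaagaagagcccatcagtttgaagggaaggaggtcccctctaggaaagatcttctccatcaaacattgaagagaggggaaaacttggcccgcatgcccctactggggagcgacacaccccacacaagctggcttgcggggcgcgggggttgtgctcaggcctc
Lef1, chr3:131110047-131110296, plus strand: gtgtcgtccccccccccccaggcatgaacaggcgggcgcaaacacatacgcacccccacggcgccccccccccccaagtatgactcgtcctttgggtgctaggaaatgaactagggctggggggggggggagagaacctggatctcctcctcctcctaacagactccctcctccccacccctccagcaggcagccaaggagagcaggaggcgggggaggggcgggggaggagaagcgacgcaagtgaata

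Neither window is capitalised anywhere because neither held any of the words searched on both strands. For TCF and LEF factors these were CTTTGAA, its variant CTTTGAT, the further form CTTTGTT and finally the form CTTTGTA. The other words searched were CCGGAAGT for ETS factors, TGGGAAT for Ikaros, TGAGTCA for BACH and AP-1, TGTTTAC for forkhead factors, and for E proteins CAGCTG or the related E-box CAGGTG. RefSeq windows were matched for 7 of the 8 genes, all but Ets1. A TCF or LEF word was found in 1 of these 7, Foxp1, against 14.9% of the windows of 27018 genes, and an E-box in 1, Tcf7, against 27.4%. The starts of these windows lie 85648 bases (Foxp1) and 443 bases (Tcf7) from the 5′ end of the locus in the authors' table. The Tcf7 window holds the start codon of the long TCF-1 form, and its E-box word lies in that reading frame. That match is therefore in coding sequence and is not a promoter site. The other words were in none of the 7 windows and in 2.92% (ETS), 4.01% (Ikaros), 4.43% (BACH and AP-1) and 3.06% (forkhead) of all windows. A missing word says nothing about whether a factor binds there. The Lef1 window had 66.4% G and C with 11 CpG dinucleotides, and the Satb1 window 58.0% with 5. The medians over all windows were 52.0% and 6.

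Across the 8 factors, 6 had a lower value in CD5 high cells and 2, Id3 and Ets1, had a slightly higher one. Of all tested genes, 50.9% had a lower value in CD5 high and 49.1% a higher one. One factor, Satb1, fell, and none rose, where 0.758% of all tested genes changed, 0.221% with a fall and 0.538% with a rise. The median log2 fold change of the 8 factors, CD5 high over CD5 low, was -0.32, and that of all tested genes was -0.01. The contrast itself was known when the genes were chosen, so nothing is read from these shares.

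**Figure D1:**
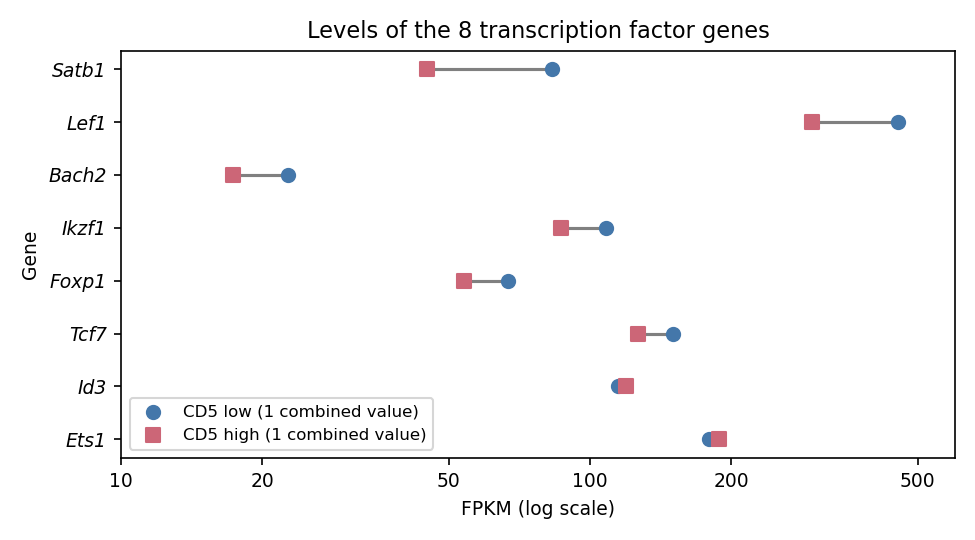
FPKM (log scale) of each of the 8 factor genes in CD5 low (circles) and CD5 high (squares) cells, 1 combined value per group with no error available. The squares lie left of the circles for 6 genes, by most for Satb1 (83.2 and 45.0 FPKM), and almost on them for Id3 and Ets1.

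Satb1, the chromatin organiser, had 83.2 FPKM among CD5 low cells and 45.0 FPKM among CD5 high cells by the authors' deposited table. This was a 1.85-fold lower level in CD5 high (log2 fold change -0.89; the authors' deposited table, q = 0.0110). Of 7237 tested genes with nonzero values in both groups, 178 had a lower fold change. In CD5 low cells Satb1 stood above 87.3% of tested genes by FPKM, and in CD5 high cells above 75.9%. Satb1 lies on chromosome 17, 51736187 to 51833290 (mm10), on the minus strand. In GENCODE M21 its exons share 156 bases with the unclassified transcript Gm36931 on the same strand and 128 bases with Gm6934 on the opposite strand. The library kit does not mark strand, so reads in those stretches cannot be assigned to one gene.

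SATB1 is known to repress Pdcd1, the gene of the inhibitory receptor PD-1, in mouse T cells. Pdcd1 had 31.6 FPKM among CD5 low cells and 52.5 FPKM among CD5 high cells and missed the threshold (the authors' deposited table, q = 0.210). On the FPKM scale the level of Satb1 was 2.64 times that of Pdcd1 in CD5 low and 0.857 times in CD5 high. The order of these levels was thus opposite in the 2 groups, and a link between the levels was not tested. By distance in log2 FPKM over the 2 group values, the tested genes nearest to Satb1 were Slfn1, Txk and Mrps28. Slfn1, a Schlafen family gene, had 78.5 and 46.0 FPKM (the authors' deposited table, q = 0.0845). Txk, a Tec family kinase gene of T cells, had 78.2 and 50.2 FPKM (the authors' deposited table, q = 0.176). Mrps28, which encodes a mitochondrial ribosomal protein, had 73.8 and 41.8 FPKM (the authors' deposited table, q = 0.370). Their distances were 0.090, 0.18 and 0.20, and likeness over 2 values describes the levels only.

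The HMG box factors were the most and the third most abundant of the 8. Lef1 had 455 FPKM among CD5 low cells and 298 FPKM among CD5 high cells, which did not pass the test (log2 fold change -0.61; the authors' deposited table, q = 0.0975). Its paralog Tcf7 had 151 FPKM among CD5 low cells and 127 FPKM among CD5 high cells (log2 fold change -0.25; the authors' deposited table, q = 0.688). Both values were lower in CD5 high, and the level of Lef1 was 3.02 times that of Tcf7 in CD5 low and 2.35 times in CD5 high. Lef1 was above 96.8% of tested genes in CD5 low and above 95.8% in CD5 high, so it remained one of the more abundant transcripts. Lef1 lies on chromosome 3, 131110297 to 131224357, and Tcf7 on chromosome 11, 52252604 to 52282571 (mm10). Exons of Lef1 share 1208 bases with the antisense gene Gm43352, and for Tcf7 no shared exon bases were found. GENCODE M21 lists 8 Lef1 and 2 Tcf7 transcripts, and the gene values do not separate long from short forms.

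Cofactors of the HMG box proteins gave no call. Among the beta-catenin and Groucho cofactors, 12 of 18 listed symbols were tested, and the untested Tle5 is another symbol of the tested Aes. Of the 12, 7 had a lower and 5 a higher value in CD5 high, against 50.9% and 49.1% of all tested genes. None passed in either direction, where 0.758% of all tested genes did. None had an unadjusted p under 0.05 in the authors' deposited table, where 10.3% of all tested genes did. In a list this short, the lack of a call is not read as a result about the cofactors. Their median log2 fold change stood at -0.06. Its most abundant members were Aes, a short Groucho relative, with 115 and 119 FPKM for CD5 low and CD5 high, and the casein kinase gene Csnk1a1, with 68.8 and 74.4 FPKM. The largest differences were those of the scaffold gene Axin1, with 13.0 and 9.90 FPKM (the authors' deposited table, q = 0.696), and of Pygo2, a beta-catenin co-activator, with 30.1 and 23.8 FPKM (the authors' deposited table, q = 0.679). Axin2, a classical target of beta-catenin with TCF and LEF factors, had 13.5 and 14.3 FPKM (the authors' deposited table, q = 0.952).

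Bach2, the bZIP repressor, was the least abundant of the 8 factors in both groups. It had 22.7 FPKM among CD5 low cells and 17.3 FPKM among CD5 high cells and missed the threshold (log2 fold change -0.39; the authors' deposited table, q = 0.520). Its known target Prdm1, the gene of the effector regulator Blimp-1, had 8.41 and 17.1 FPKM and also missed the threshold (the authors' deposited table, q = 0.0553). Bach2 stood at 2.70 times the level of Prdm1 in CD5 low and at 1.01 times in CD5 high. A link between the levels of Bach2 and Prdm1 was not tested. Bach1, the paralog of Bach2, had 8.51 and 5.62 FPKM (the authors' deposited table, q = 0.496). BACH2 binds DNA with a small Maf partner, and the tested partner genes lay in both directions, Mafg with 23.5 and 34.3 FPKM (the authors' deposited table, q = 0.551) and Mafk with 9.18 and 7.60 FPKM (the authors' deposited table, q = 0.862). Bach2 lies on chromosome 4, 32417435 to 32586108 (mm10), and 537 of its exon bases overlap the antisense gene Bach2os.

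Foxp1, the forkhead factor of quiescence, had 66.9 FPKM among CD5 low cells and 53.8 FPKM among CD5 high cells (log2 fold change -0.31; the authors' deposited table, q = 0.571). Il7r, which FOXP1 is known to restrain and ETS1 to support, had 208 and 134 FPKM (the authors' deposited table, q = 0.0714). Among forkhead relatives, Foxp4 had 6.78 and 9.69 FPKM (the authors' deposited table, q = 0.623) and Foxp3 had 1.10 and 12.3 FPKM (the authors' deposited table, q = 0.298). The level of Foxp1 was 60.8 times that of Foxp3 in CD5 low and 4.36 times in CD5 high. Foxp1 is thus the more abundant of these forkhead transcripts in both groups. Every tested gene had at least 6.82 FPKM in a group, and Foxp3 had 1.10 FPKM in CD5 low. A gene at that level in CD5 low could be tested only with a higher value in CD5 high. The smaller ratio of Foxp1 to Foxp3 in CD5 high is therefore not read as a result. Foxp1 lies on chromosome 6, 98925342 to 99435345 (mm10), and its exons share bases with Gm49348 and Gm20696 on the same strand.

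Ikzf1, which encodes Ikaros, had 108 FPKM among CD5 low cells and 86.5 FPKM among CD5 high cells (log2 fold change -0.32; the authors' deposited table, q = 0.562). Its tested relatives of the same zinc finger family lay in both directions. Ikzf2, the gene of Helios, rose from 16.6 to 36.3 FPKM (2.19-fold; the authors' deposited table, q = 0.0110), and Ikzf3, the gene of Aiolos, had 22.9 and 31.0 FPKM (the authors' deposited table, q = 0.496). Ikzf5 had its lower value in CD5 high, at 13.6 and 9.53 FPKM (the authors' deposited table, q = 0.540). The level of Ikzf1 was 6.51 times that of Ikzf2 in CD5 low and 2.38 times in CD5 high. Of the NuRD subunits with which Ikaros works, all 13 listed genes were tested and none changed. Of all tested genes, 0.758% changed. The NuRD genes were 6 lower and 7 higher, against 50.9% and 49.1% of all tested genes, with a median log2 fold change of 0.01. Of them, 0 had an unadjusted p under 0.05 in the authors' deposited table, where 10.3% of all tested genes did. Chd4, the remodelling ATPase, had 46.0 and 55.1 FPKM and its paralog Chd3 had 77.1 and 77.8 FPKM for CD5 low and CD5 high. Gatad2b, with 18.0 and 12.6 FPKM, and Mta1, with 13.5 and 11.0 FPKM, differed most (the authors' deposited table, q = 0.649 and 0.802). Ikzf1 lies on chromosome 11, 11686213 to 11772926 (mm10).

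Id3 and Ets1 had nearly equal levels in the groups. Id3 had 115 FPKM among CD5 low cells and 119.6 FPKM among CD5 high cells (log2 fold change 0.06; the authors' deposited table, q = 0.964). Ets1 had 179 FPKM among CD5 low cells and 189 FPKM among CD5 high cells (log2 fold change 0.07; the authors' deposited table, q = 0.923). Without a spread over libraries, no interval can be given for either difference, and the q-values do not show equality. Id2, the relative that favours effector cells, was more abundant than Id3, with 285 and 279 FPKM (the authors' deposited table, q = 0.977), and the Id3 level was 0.403 times that of Id2 in CD5 low and 0.429 times in CD5 high. The E protein genes, whose products the ID proteins bind, were Tcf3, with 9.74 and 15.2 FPKM (the authors' deposited table, q = 0.440), and Tcf12, with 16.5 and 14.9 FPKM (the authors' deposited table, q = 0.898). With the small Maf genes, 4 of 6 listed partners were tested, at a median log2 fold change of 0.20. Of these, 2 were lower and 2 higher, against 50.9% and 49.1% of all tested genes. None of them changed, where 0.758% of all tested genes did. At an unadjusted p under 0.05 there was 1 such partner, Tcf3, which was higher in CD5 high, as were 5.58% of all tested genes at that p. Ets1 was the most abundant of the listed ETS genes, at 2.80 and 3.66 times the level of the next one, Elf1, which had 64.1 and 51.5 FPKM (the authors' deposited table, q = 0.677). Id3 lies on chromosome 4, 136143822 to 136145392, and Ets1 on chromosome 9, 32696042 to 32757820 (mm10).

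**Figure D2:**
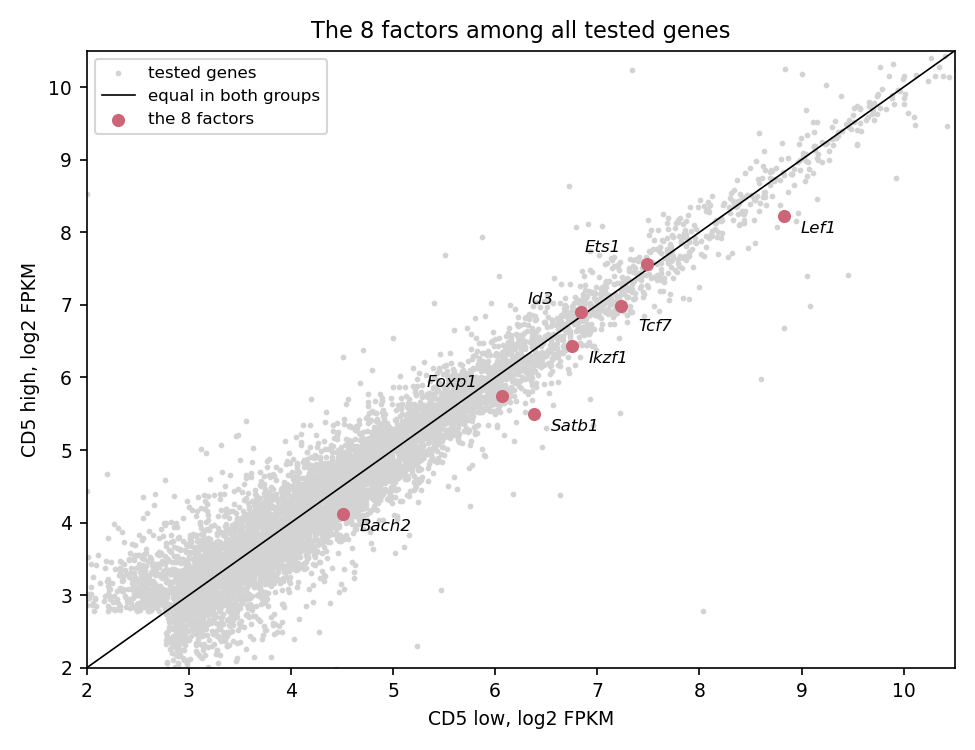
log2 FPKM in CD5 low (x axis) and CD5 high (y axis) for the tested genes (grey) and the 8 factors (red), with the line of equal values and axes limited to the range of the factors. Satb1 and Lef1 lie below the line, Id3 and Ets1 almost on it, and Bach2 is the only factor near the median level of tested genes (20.2 FPKM in CD5 low).

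In order of FPKM the factors ran Lef1, Ets1, Tcf7, Id3, Ikzf1, Satb1, Foxp1 and Bach2 in CD5 low. The order in CD5 high was the same except that Foxp1 stood above Satb1. With 1 value per group, no neighbours in this order can be separated from each other by a spread. Lef1 exceeded Bach2 by 17.2-fold in CD5 high and by more in CD5 low, so the range within the set was much wider than any difference between the groups.

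Counts for related genes were taken from lists chosen with earlier results of these data known. Family relatives of the factors were tested for 17 of 25 genes, with 8 lower and 9 higher values in CD5 high and a median log2 fold change of 0.10. Ikzf2 alone rose and none fell. Of all tested genes, 0.538% rose and 0.221% fell, and 50.9% had a lower and 49.1% a higher value. Other transcription factors of the T lineage were tested for all 14 genes, and none changed. They split evenly, 7 lower and 7 higher, and 2 were higher at an unadjusted p under 0.05, as were 5.58% of all tested genes. Bcl11b, required for T cell identity, had 97.7 and 94.3 FPKM and Klf3 had 79.6 and 66.7 FPKM in the authors' deposited table. Myb, with 11.1 and 16.7 FPKM, and Runx2, with 9.05 and 13.5 FPKM, differed most (the authors' deposited table, q = 0.483 and 0.479).

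Effector transcription factors had a higher value in CD5 high more often than a lower one. Of 14 tested among 16 listed, 9 had a higher value in CD5 high, as did 49.1% of all tested genes, and 5 a lower one. The list had a median log2 fold change of 0.28. None of its genes changed at q under 0.05, where 0.758% of all tested genes did. At an unadjusted p under 0.05, 7 were higher, as were 5.58% of all tested genes. Tox2, a relative of the exhaustion factor Tox, had 9.23 and 24.3 FPKM (the authors' deposited table, q = 0.132), the largest difference in the list ahead of Prdm1. The most abundant member, Klf6, was lower in value in CD5 high, at 336 and 274 FPKM (the authors' deposited table, q = 0.584). The difference between this list and the 8 factors was not tested, since genes are not replicates.

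Naive and recirculation genes had lower values in CD5 high for 13 of 18 tested genes among 19 listed, against 50.9% of all tested genes. The median log2 fold change of the list was -0.23. No gene of the list changed, where 0.758% of all tested genes did. At an unadjusted p under 0.05, 7 were lower, as were 4.70% of all tested genes. Als2cl had 33.5 and 19.6 FPKM (the authors' deposited table, q = 0.0845), and Actn1, which encodes an actin crosslinker, had 16.4 and 10.3 FPKM (the authors' deposited table, q = 0.370). Its most abundant members were Klf2, the factor that maintains recirculation, with 441 and 332 FPKM (the authors' deposited table, q = 0.379), and Dapl1, with 390.4 and 428 FPKM (the authors' deposited table, q = 0.881). Values in this list were thus not lower throughout. Slamf6, a surface marker of stem-like T cells, was named after its values were seen and had 139 and 140.4 FPKM (the authors' deposited table, q = 0.985).

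Among 10 genes linked to the factors in earlier work, 9 were tested. Of these, 2 were lower and 7 higher in CD5 high, against 50.9% and 49.1% of all tested genes. The 9 genes had a median log2 fold change of 0.59, and none changed, where 0.758% of all tested genes did. They mix genes that the factors promote, such as Bcl6, with genes that they repress, such as Pdcd1. Prdm1, Il7r, Ccr7, Myb and Gata3 are also counted in the lists above. The directions and median of the 9 are therefore not read as a result about the factors. At an unadjusted p under 0.05, 2 of the 9 were lower and 5 higher, against 4.70% and 5.58% of all tested genes. The lower ones were Il7r, given above, and the lymph node homing receptor gene Ccr7, with 210.0 and 142 FPKM (the authors' deposited table, q = 0.169). Cxcr5, the follicular homing receptor gene, had 12.2 and 24.8 FPKM (the authors' deposited table, q = 0.0975). Bcl6, whose expression TCF-1 and LEF-1 promote in follicular helper cells, had 13.3 and 21.3 FPKM (the authors' deposited table, q = 0.347). Gata3, which TCF-1 promotes in Th2 cells, had 45.8 and 54.7 FPKM (the authors' deposited table, q = 0.713). These 2 genes, with Pdcd1, Axin2, Bach1, Foxp4, Ikzf3, Ikzf5, Mafk and the markers Cd79b, Tyrobp, Klrd1, Ins2 and Sst below, were named for their link to a factor or list after their values were seen.

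**Figure D3:**
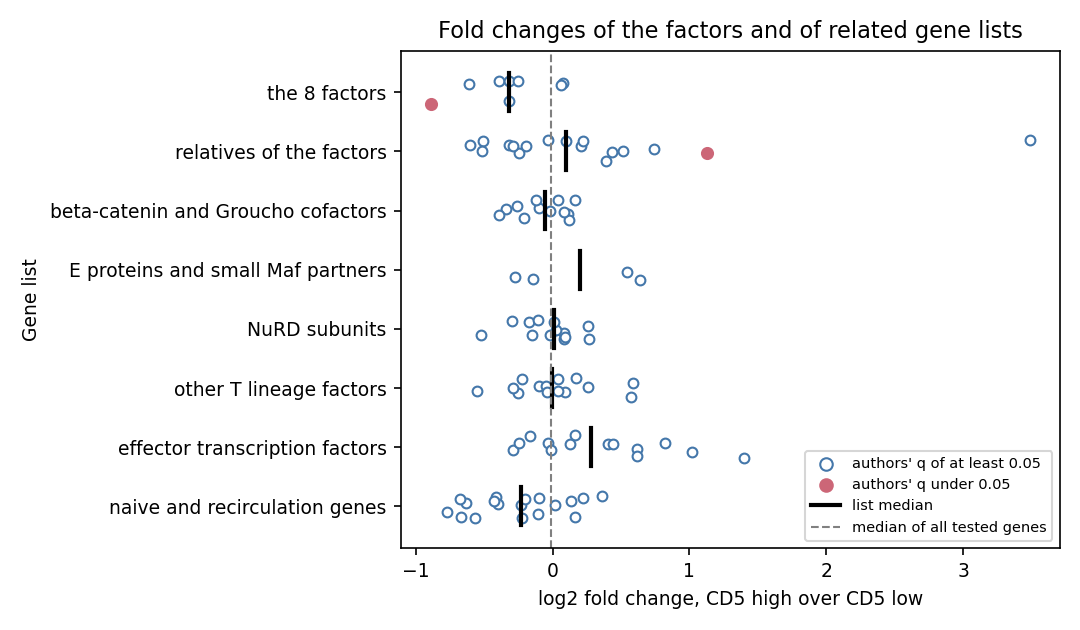
log2 fold change, CD5 high over CD5 low, of each tested gene in the 8 factors and 7 related lists, with the list median (black bar) and the median of all tested genes (dashed line). Filled points had an authors' q under 0.05 (Satb1 and Ikzf2), and the medians of the 8 factors and of the naive genes lie left of the dashed line while that of the effector factors lies right of it.

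Markers of T cells matched the labelled cell type, with Cd3e at 417 and 462 FPKM and Cd4 at 248 and 243 FPKM for CD5 low and CD5 high by the authors' deposited table. Neither CD8 gene, Cd8a nor Cd8b1, was among the tested rows. Of all tested genes, 49.1% were higher and 50.9% lower in CD5 high, 0.538% rose and 0.221% fell. Regulatory T cell markers were higher in CD5 high for 6 of 6 tested genes of 8 listed, and 4 rose (Ctla4, Folr4, Ikzf2 and Tnfrsf18). Their summed level was 405 FPKM among CD5 low cells and 835 FPKM among CD5 high cells. Antigen-presenting myeloid markers were lower in CD5 high for 6 of 6 tested genes of 9 listed, and 5 fell (Cd74, H2-Aa, H2-Eb1, H2-Ab1 and Fcer1g, the last listed at 0 in CD5 high). Their summed level was 1089 and 483 FPKM, while Lyz2, Itgam and Csf1r were not among the tested rows. Of 6 B cell markers, a lineage that also uses Bach2, Ikzf1, Ets1 and Foxp1, Cd79b was the single one tested, with 11.0 and 14.0 FPKM (the authors' deposited table, q = 0.862). The NK cell markers Tyrobp and Klrd1 summed to 33.8 and 12.8 FPKM. Pancreatic endocrine markers summed to 301.5 and 2788 FPKM over 4 of 5 listed genes, of which 3 had higher and 1 a lower value in CD5 high. Most of the CD5 high sum was Ins2. It had 26.7 and 2395 FPKM and missed the threshold (the authors' deposited table, q = 0.193), whereas Ins1 rose. The somatostatin gene Sst went the other way, at 263 and 6.86 FPKM (the authors' deposited table, q = 0.0714). Sst made up most of the CD5 low sum. Exocrine markers summed to 822 and 661 FPKM over 8 of 10 listed genes, of which Cel fell. The part of these cells in the lower values of Satb1 and the other factors was not tested.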

How the data were processed

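The 8 genes and all gene lists were chosen with earlier results of these data known. Per the submitters' processing notes, reads were processed with TopHat 1.0.0 and Cufflinks on mm10. For the Cufflinks version, the annotation and the way libraries were combined, nothing was given in the sources used here. Libraries were prepared from amplified cDNA of lysed cells with the Nextera XT kit, per the labels' protocols, and this kit does not mark strand. The authors deposited, for each gene and group, 1 FPKM value, and for each gene their p-value, q-value, log2 fold change and test score. Per the file headers, the column names are those of a Cuffdiff gene test. The deposited log2 fold change matched the log2 ratio of the FPKM values to within 5.1e-05, so no pseudocount was used.

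The authors tested 7252 of 7404 gene rows, each with at least 6.82 FPKM in a group, and 1 further line was not analysed here. A limma test had been planned in case values per library were given. With 1 combined value per group, the authors' test is described instead, and no spread or depth can be stated. The q-value threshold of 0.05 coincided with the authors' flag in every row. Genes named from each list were those past the threshold, the 2 most abundant and the 2 with the largest fold change, with exceptions named in the text. Of the marker lists, Foxp3, Ikzf2, Cd4 and Cd3e and the genes past the threshold were to be named. Other genes named were the 3 nearest to Satb1. Promoter windows from RefSeq (GRCm38.p6) were taken at the farthest upstream start listed for each gene, which for Tcf7 lay inside coding sequence. Exon overlaps came from GENCODE M21, on the same build. Alternative settings were median centring, quantile normalization, upper-quartile scaling, pseudocounts of 1 and 5, a minimum mean of 20 FPKM and renewed Benjamini-Hochberg adjustment. Of these, only centring, quantile normalization and the adjustment were tested on simulated data first (Python 3.11.15, numpy 2.4.6, pandas 2.3.3).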

Additional observations from a re-analysis of the deposited data

How the results depend on the processing

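After quantile normalization, 6 factors were again lower in CD5 high. Median centring and upper-quartile scaling, which each shift every gene alike, gave 6 too. They moved the median log2 fold change of all tested genes from -0.009 to 0 and to -0.029. Shifts of that size could not change the direction of any factor. A pseudocount cannot change the direction of a difference, and all 8 factors passed the minimum mean of 20 FPKM, so these settings say nothing about it. The median log2 fold change of the factors was -0.31 after median centring, -0.35 after quantile normalization and -0.34 after upper-quartile scaling. It was -0.31 on the log2(FPKM + 1) scale and -0.30 on the log2(FPKM + 5) scale. Whether such shifts exceed the spread between libraries cannot be said without values per library. At a q-value under 0.1, 2 factors passed, Satb1 and Lef1, in place of 1 at 0.05. The share of all tested genes at that looser threshold was not computed, so nothing is read from this count. P-values were adjusted again after all tested marker genes were left out, those of T cells and regulatory T cells included. They were also adjusted over the 3703 genes with a mean of at least 20 FPKM. In both cases 1 factor, Satb1, passed, at 0.0139 and 0.00712, while Lef1 stood at 0.111 and 0.0701.

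No paired analysis was possible because only 1 combined value for each group was at hand, although the titles give libraries of both groups the numbers 3 and 4. For the same reason the fits without each library were not run. Unknown depth limits every value.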
